A study of Mus musculus with 6 samples.

Results

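Here 7 liver genes that depend on growth hormone were followed, namely Hsd3b5, Slco1a1, Serpina4-ps1, Mup1, Mup3, Mup4 and Mup5, as 7 of 19057 genes that had a probe with a single symbol. Symbols in the probe table of the platform were updated to the current RefSeq symbol where the gene identifier matched. All probes that then carried one of these symbols were taken, which gave 6 probes for 5 of the 7 genes. The genes were chosen by earlier results of these same arrays, and which comparison was used is not recorded. Their differences between the diet arms are therefore a description and carry no test. Illumina bead arrays, 6 in all and 1 per group, were hybridised with liver RNA pooled from 4 C57BL/6J mice of 18 weeks of age. NOB mice received a high-fat diet and 200 mg/kg of the citrus flavone nobiletin by mouth every other day for 10 weeks, HFD mice received the high-fat diet and vehicle, and RC mice received regular chow and are labelled as vehicle-treated. Each arm was sampled at zeitgeber time (ZT) 14, which is 2 h after lights off, and at ZT2, which is 2 h after lights on, under 12 h of light with free access to food. Every group is a pool without a replicate, and the spread between mice cannot be seen.

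Growth hormone leaves the pituitary in pulses in male mice and more continuously in females, and it acts on hepatocytes through its receptor, the kinase JAK2 and the transcription factor STAT5B. The pulsatile pattern maintains a set of male-biased liver genes, and their products are steroid-converting enzymes, uptake transporters and the major urinary proteins. Major urinary proteins are small lipocalins that the liver secretes and the kidney passes into urine, where they carry pheromones. Hsd3b5 belongs to the hydroxysteroid dehydrogenase family, and in mouse liver it is an enzyme of steroid inactivation typical of males. Slco1a1 encodes an organic anion transporter of the hepatocyte membrane. Serpina4-ps1 is a transcribed pseudogene of the serpin family.

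On the arrays, 28.1% to 32.0% of 45281 probes were detected at a detection p under 0.01, and 8561 genes had a named probe detected on at least 2 arrays. The hepatocyte genes Apoa1 and Ttr lay between 14.003 and 14.36 on the normalised log2 scale on all arrays, while the only Alb probe lay between 4.77 and 5.39, near background. All 4 Xist probes were undetected on all 6 arrays, and the brighter Eif2s3y probe, of a Y-linked gene, lay between 7.65 and 8.13. The labels do not state the sex of the animals. One library stood apart: 4 of 6 listed skeletal muscle genes were measured, and their summed linear level was 114 and 107 in NOB at ZT14 and ZT2, 394 and 150 in HFD, and 1971 and 121 in RC. Ckm and Myh4, the other listed muscle genes, did not pass the filter. Acta1, a muscle actin, lay at 10.12 in RC at ZT14 and at 4.98 in RC at ZT2. The summed level of 6 stellate cell genes was 3734 and 3789 in NOB at ZT14 and ZT2, 4149 and 5017 in HFD, and 2963 and 2799.6 in RC, lowest in the chow pools. Dcn and Reln make up most of this sum. The mean log2 level of the 6 genes was 7.11 and 7.21 in NOB, 7.54 and 7.43 in HFD, and 7.29 and 7.02 in RC. Des was highest in RC at ZT14, at 6.72. For 5 of 6 Kupffer cell genes the summed level was 2475 and 2039 in NOB, 1483 and 2063 in HFD, and 1225 and 1700.02 in RC. Only 2 of 6 exocrine pancreas genes were measured, at 404 and 781 in NOB, 435 and 391 in HFD, and 679.7 and 682 in RC. The part of these signals in the results was not tested, and values at ZT2 or without the RC array of ZT14 are given below. In bulk liver RNA, fewer hepatocytes and less RNA per hepatocyte cannot be told apart, and the summed level of the 6 measured hepatocyte markers was 62038 and 67877 in NOB, 63440 and 62616 in HFD and 63778 and 62819 in RC at ZT14 and ZT2. Most of this sum comes from Apoa1, Ttr and Cyp2e1, which lay within 1 log2 unit of the highest level on all arrays. The sum can therefore hardly show a difference in hepatocyte content. Hnf4a, further from the top, lay at 10.25 and 10.61 in NOB, 10.16 and 10.18 in HFD, and 10.99 and 10.54 in RC.

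Of the 7 genes, 4 were measured, namely Hsd3b5, Serpina4-ps1, Mup3 and Mup5. Slco1a1 had 1 probe that was detected on no array. For Mup1 and Mup4 no probe carried the updated symbol, so their RNA was not analysed here. The genes lie on mouse chromosomes 3 (Hsd3b5, 98618636 to 98645534), 6 (Slco1a1, 141907281 to 141946962), 12 (Serpina4-ps1, 104077959 to 104086920) and 4 (the Mup genes) in GRCm38.p6. Within the Mup cluster the positions are 60498012 to 60501960 for Mup1, 59956804 to 59960667 for Mup4, 61831319 to 61858043 for Mup5 and 62083476 to 62087317 for Mup3. Which exon a probe lies in was not analysed here.

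The Mup genes are close relatives, and their upstream sequences show how close. RefSeq start sites in GRCm38.p6 were matched for 4 of the 7 genes, and the 100 bases before the start are printed for these and for 3 further Mup genes whose RNA was measured. Capitals mark TATATAA in the Mup genes and AGGTCA, a half-site of nuclear receptors, in Slco1a1. The windows, written 5′ to 3′ on the strand of the gene, are chr3:98645535-98645634 (minus) for Hsd3b5, chr6:141946963-141947062 (minus) for Slco1a1, chr4:62087318-62087417 (minus) for Mup3, chr4:59960668-59960767 (minus) for Mup4, chr4:60139857-60139956 (minus) for Mup2, chr4:60003381-60003480 (plus) for Mup6 and chr4:62150842-62150941 (minus) for Mup21.
Hsd3b5: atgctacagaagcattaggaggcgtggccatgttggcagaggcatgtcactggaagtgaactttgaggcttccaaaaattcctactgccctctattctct
Slco1a1: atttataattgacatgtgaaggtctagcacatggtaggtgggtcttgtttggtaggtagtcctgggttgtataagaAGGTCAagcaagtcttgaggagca
Mup3: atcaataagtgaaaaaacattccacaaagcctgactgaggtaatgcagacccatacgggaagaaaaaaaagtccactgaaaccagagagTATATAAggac
Mup4: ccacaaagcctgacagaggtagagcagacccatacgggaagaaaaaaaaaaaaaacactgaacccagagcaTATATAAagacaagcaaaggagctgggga
Mup2: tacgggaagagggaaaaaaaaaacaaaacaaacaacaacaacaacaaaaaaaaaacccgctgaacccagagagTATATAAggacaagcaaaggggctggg
Mup6: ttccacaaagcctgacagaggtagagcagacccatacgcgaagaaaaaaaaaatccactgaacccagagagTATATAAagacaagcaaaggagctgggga
Mup21: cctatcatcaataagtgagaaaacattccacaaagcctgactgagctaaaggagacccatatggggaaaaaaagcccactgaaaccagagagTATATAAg

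Over the 250 bases before the start, the 10 pairs among these 5 Mup genes were identical at 80.5% to 93.4% of 190 to 248 aligned bases. Mup3 was closest to Mup21, with 93.4% identity over 244 bases. TATATAA, searched on both strands, was found in all 5 Mup sequences and in 3.04% of 32851 promoters. AGGTCA occurred at 2 places in Slco1a1 and once in Mup4, and 14.02% of promoters hold it. Neither TTCNNNGAA, the core to which STAT5 binds, nor the E-box CACGTG was in the 250 bases of any of these 7 genes, and 7.02% and 6.02% of all promoters hold them. These are matches of letters in a short window and say nothing of where a factor binds.

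Hsd3b5 had the widest range of the measured members. Its bead signal was 57.0 and 141 in NOB at ZT14 and ZT2, 57.8 and 320 in HFD, and 1705 and 1964 in RC. The corresponding normalised log2 levels were 4.34 and 6.55 in NOB, 4.37 and 7.89 in HFD, and 10.87 and 11.07 in RC. Both chow pools were high, and the 4 pools on the high-fat diet were lower without overlap. At ZT14 the probe was undetected in NOB (detection p of 0.442) and in HFD (detection p of 0.325), so only a bound can be given there. The detection p is the scanner software's test against negative controls on that array and does not compare groups. Against the weakest detected signal of those arrays, Hsd3b5 was at least 55.2-fold lower in NOB and at least 56.7-fold lower in HFD than in RC at ZT14. At ZT2 the probe was detected in all 3 arms, and Hsd3b5 was 22.9-fold lower in NOB and 9.06-fold lower in HFD than in RC. The mean over both times was -5.53 for NOB minus RC and -4.84 for HFD minus RC on the log2 scale, and each of these rests on 1 array of the high-fat arm at background. Leaving out single arrays moved them to between -6.86 and -4.19 for NOB and between -6.17 and -3.50 for HFD. In the authors' processed values, on a linear scale, Hsd3b5 stood at 0.1 and 78.1 in NOB, 1.4 and 221 in HFD and 1856 and 2132 in RC at ZT14 and ZT2.

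**Figure D1:**
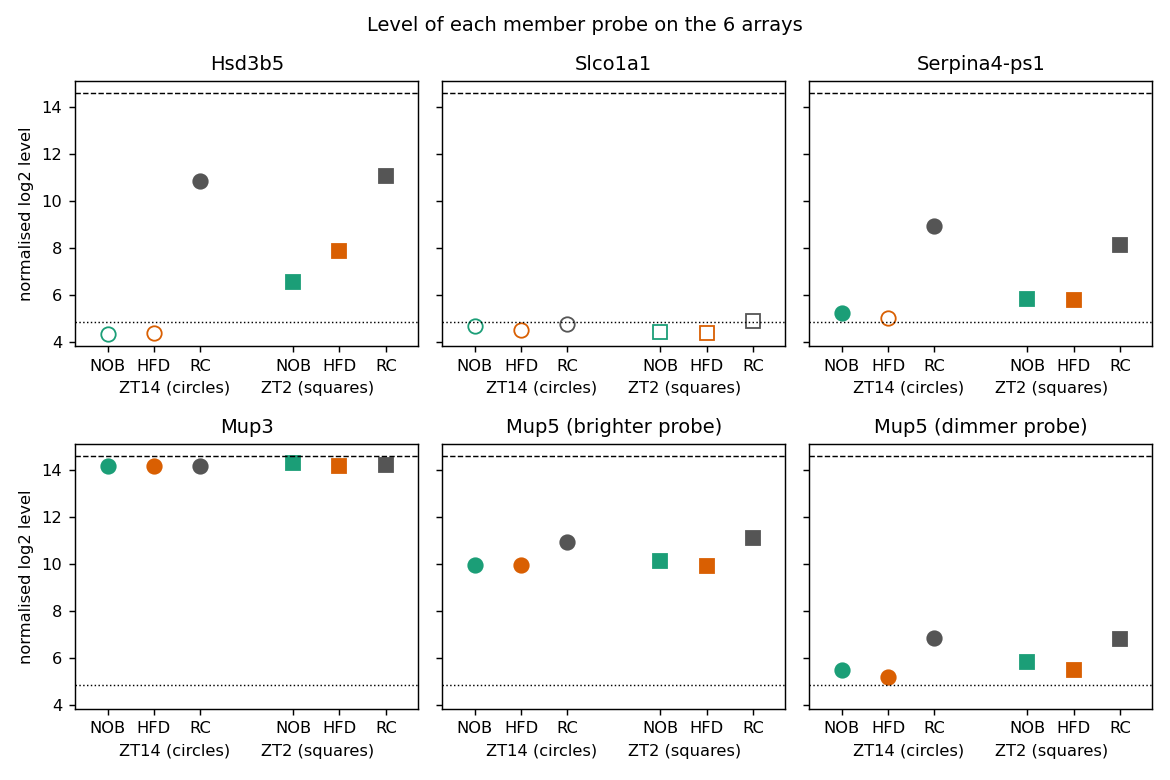
Normalised log2 level of each member probe (vertical axis) on the 6 arrays, by arm (NOB, HFD, RC) at ZT14 (circles) and ZT2 (squares), 1 pool per point. Filled points were detected and open points were not, the dashed line is the highest level on an array (14.60) and the dotted line the lowest level detected on any array (4.85). Hsd3b5, Serpina4-ps1 and both Mup5 probes are highest in the RC pools, Mup3 lies at the top of the scale and Slco1a1 at background.

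Serpina4-ps1 was also highest in both chow pools, with a smaller range. Its bead signal was 78.9 and 102 in NOB at ZT14 and ZT2, 73.7 and 107 in HFD, and 466 and 281 in RC. On the log2 scale the levels were 5.24 and 5.84 in NOB, 5.01 and 5.79 in HFD, and 8.95 and 8.13 in RC. Again the chow pools lay above all 4 others. The probe missed detection in HFD at ZT14 (detection p of 0.0107) and just passed in NOB at ZT14 (detection p of 0.00214). Serpina4-ps1 was 4.88-fold lower in NOB and 5.07-fold lower in HFD than in RC at ZT2. At ZT14 it was 13.1-fold lower in NOB and at least 15.02-fold lower in HFD than in RC, so the gap to chow was wider than at ZT2, where the RC level itself was lower. That widening rests on 1 array per arm and time and was not tested.

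Mup5, a major urinary protein gene, had 2 probes of different brightness that were both highest in the chow pools. The brighter probe gave a bead signal of 1053 and 1225 in NOB at ZT14 and ZT2, 1053 and 1115 in HFD, and 1767 and 2015 in RC. Its log2 levels were 9.94 and 10.10 in NOB, 9.95 and 9.90 in HFD, and 10.92 and 11.10 in RC. The dimmer probe lay at 5.47 and 5.83 in NOB, 5.18 and 5.47 in HFD, and 6.83 and 6.81 in RC. With both probes the chow pools were highest and no high-fat pool reached them. NOB minus RC averaged -0.99 for the brighter probe and -1.17 for the dimmer one, and HFD minus RC averaged -1.08 and -1.50, so the probes agreed in direction and differed in size. Across the 6 arrays the probes correlated at r = 0.971, which is a description of probes that share the same arrays.

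Mup3 could not be ordered between arms. Its bead signal was 18256 and 21195 in NOB at ZT14 and ZT2, 18276 and 19640.3 in HFD, and 16805 and 18727 in RC, against a highest signal of 22177 to 26528 on an array. Before normalisation the chow pools were thus the lowest at each time. After normalisation the levels were 14.18 and 14.30 in NOB, 14.17 and 14.15 in HFD, and 14.15 and 14.19 in RC, between 0.29 and 0.44 log2 units below the highest level. The NOB minus RC difference was 0.03 and 0.11 and the HFD minus RC difference 0.02 and -0.04 at ZT14 and ZT2. Each array had 72 probes within 1 log2 unit of its highest level, a number that is equal because normalisation gave all arrays the same distribution. Among the 45 genes whose mean level was that close to the top, 0 differed by 2-fold or more between HFD and RC. Of the 89 genes lying 1 to 2 units below the top, 4.49% did. Genes chosen by a mean so near the top have little room for a 2-fold difference, so nothing is read from the 0.

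Slco1a1 had a bead signal of 66.3 and 60.6 in NOB, 61.5 and 59.8 in HFD and 63.8 and 67.9 in RC at ZT14 and ZT2. The detection p ranged from 0.0171 to 0.345, and no array passed 0.01. All 6 signals were near the array medians of 57.5 to 62.4, so the level of this transporter was not measurable with this probe and no order of the arms can be read from it.

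The other major urinary protein probes are given by their distance from the top of the scale. Over 9 probes of 6 Mup genes, the members Mup3 and Mup5 included, 8 were lower in HFD than in RC at both times and 8 were lower in NOB than in RC at both times, and the exception was Mup3 in each case. The 3 probes of Mup2 differed in brightness. The brightest, at a mean level of 14.27, gave -0.03 for NOB minus RC and -0.10 for HFD minus RC. The middle probe, at 13.70, gave -0.41 and -0.64, and the dimmest, at 13.16, gave -0.53 and -0.90. Mup20, which encodes the pheromone darcin, lay at 9.97 and 10.32 in NOB, 9.76 and 10.09 in HFD, and 11.14 and 11.16 in RC. Over the 7 probes that were not within 1 unit of the top on all arrays, the differences ranged from -1.17 to -0.41 for NOB minus RC and from -1.50 to -0.64 for HFD minus RC. Mup genes are close relatives, and since cross-hybridisation between them was not tested, a probe may read several of these genes.

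**Figure D2:**
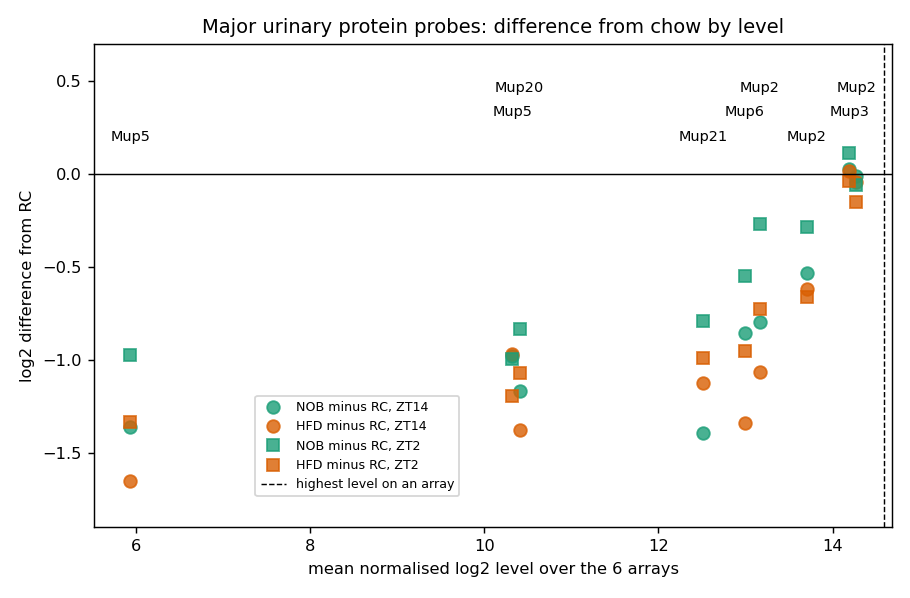
Log2 difference of NOB (green) and HFD (orange) from RC at ZT14 (circles) and ZT2 (squares) for each of the 9 major urinary protein probes, against the mean normalised log2 level of the probe over the 6 arrays. The dashed line is the highest level on an array, and Mup3 and the brightest Mup2 probe beside it lie near 0 while the other 7 probes lie below 0.

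Between nobiletin and vehicle on the high-fat diet the members differed by less than between either arm and chow, apart from Mup3, whose differences were small throughout. Hsd3b5 was 2.52-fold lower in NOB than in HFD at ZT2, with levels of 6.55 and 7.89, and was undetected in both arms at ZT14. The NOB minus HFD difference of Serpina4-ps1 was 0.23 at ZT14, where HFD was undetected, and 0.05 at ZT2. That of the brighter Mup5 probe was -0.01 and 0.20, and that of the dimmer probe 0.29 and 0.36. For Mup20 it was 0.21 and 0.23, for Mup6 0.48 and 0.41, and for Mup21 -0.27 and 0.20. The comparisons with HFD and with RC share the NOB arrays and are set side by side without a test.

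Time of day was tested in limma over all 8561 genes with arm and time as additive terms. Whether it played a part in the choice of the genes is not recorded. With 1 pool per arm and time, the standard errors and p-values rest on how far the arms disagreed between ZT14 and ZT2. That spread is moderated over all genes, and it does not measure the spread between mice. None of the 4 measured members passed at a false discovery rate of 0.05, and 1 had an unadjusted p under 0.05, while 0.0234% of all genes passed and 10.9% had an unadjusted p under 0.05. Hsd3b5 came closest, at -1.98 ± 0.53 (SE) for ZT14 minus ZT2 with an adjusted p of 0.273. This fit uses the NOB and HFD levels of ZT14, which were undetected, as they stand. Against the weakest detected signal, Hsd3b5 was at least 2.77-fold lower at ZT14 than at ZT2 in NOB and at least 7.18-fold lower in HFD, while the difference was -0.20 in RC, where both arrays were detected. Without either RC array the fit called it (-2.87, adjusted p = 0.0373), which rests on the same undetected levels, and over the alternatives its value ranged from -2.87 to -1.21. Serpina4-ps1 was at -0.61 in NOB, -0.78 in HFD, with the ZT14 array undetected, and 0.82 in RC, and the brighter Mup5 probe at -0.16, 0.05 and -0.18. Whether the day-night difference depended on the diet could not be tested with 1 pool per arm and time.

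Both RC arrays lay above all 4 HFD and NOB arrays for 3 of the 4 measured members, and for 13.7% of all genes. As the list was drawn up with this contrast known, nothing is read from these member counts.

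Other male-biased genes that respond to growth hormone, with no member among them, are described next, gene by gene from limma. Their standard errors and p-values come from the same fit, in which ZT14 and ZT2 stand in for repeats of an arm. Of 21 listed genes 19 were measured, and 11 fell and 0 rose in HFD against RC by limma, beside 2.34% of all genes as lower, and 17 were lower at an unadjusted p under 0.05, beside 24.2% of all genes in either direction. In NOB against RC 6 fell and 0 rose, beside 0.467% of all genes as lower. The list's median was -1.10 for NOB minus RC and -1.27 for HFD minus RC, or -1.24 with Moxd1, which was undetected in the high-fat arms, at its bound, against 0.02 and -0.00384 over all genes. This list was drawn up with results of these data known, so it is not independent evidence of a direction.

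Selenbp2, a selenium-binding protein, lay at -2.18 in NOB and -2.04 ± 0.26 (SE) in HFD relative to RC on the log2 scale (adjusted p = 0.0305 and 0.00997 in limma). Ugt2b1, a glucuronosyltransferase, lay at -1.24 in NOB and -1.38 ± 0.14 in HFD (adjusted p = 0.0287 and 0.00608 in limma). C6, a component of complement, lay at -1.81 in NOB and -1.64 ± 0.24 in HFD (adjusted p = 0.0339 and 0.0160 in limma). Cyp4a12b, a fatty acid hydroxylase, fell by 4.76 in NOB and by 4.26 ± 0.70 in HFD (adjusted p = 0.0407 and 0.0208 in limma), with the HFD array of ZT14 undetected. Mup20 fell in NOB, by 1.17 at ZT14 and 0.84 at ZT2, and by 1.22 ± 0.16 over both times in HFD (adjusted p = 0.0436 and 0.00997 in limma). Genes that fell in HFD and did not pass in NOB were Cyp4a12a (-1.65 in NOB and -2.37 in HFD), Cyp7b1, an oxysterol hydroxylase (-1.25 and -2.08), Susd4, a regulator of complement (-1.12 and -1.44), Mup21 (-1.09 and -1.06), Nudt7, a peroxisomal coenzyme A hydrolase (-0.76 and -1.04), and the P450 gene Cyp2u1 (-0.51 and -0.81). Cyp2u1 was undetected in HFD at ZT14, where it was at least 1.55-fold lower than in RC. Its levels lay between 4.99 and 6.12, not far from the weakest detected signals. Gstp1, a glutathione transferase, fell in NOB (-1.10, adjusted p = 0.0339 in limma) and stood at -0.63 in HFD (adjusted p = 0.0507 in limma).

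These counts depend on single arrays. Calls for HFD against RC dropped without either HFD array or without the RC array of ZT14, in this list and over all genes alike. Each of these fits leaves 1 array in an arm, as does the fit without the RC array of ZT2, in which the calls did not drop. Why the calls dropped in the other fits was not tested. All 11 genes that fell in HFD stayed lower than in RC in value under each of 14 alternatives. These include the fit without the RC array of ZT14, which carries the muscle signal. Between NOB and HFD limma called 0 of the 19 genes in either direction, with 1 lower and 1 higher at an unadjusted p under 0.05. Over all genes 0.164% passed, 0.128% as lower and 0.035% as higher, and 8.77% had an unadjusted p under 0.05. The 4 largest differences, NOB minus HFD, were 0.83 for Cyp7b1, 0.72 for Cyp4a12a, 0.52 for Elovl3 and -0.49 for Cyp4a12b. These are means over both times, and the sign turned between them for Cyp4a12a, at 2.04 and -0.60 at ZT14 and ZT2, and for Cyp4a12b, at 1.202 with HFD undetected at ZT14 and -2.19.

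**Figure D3:**
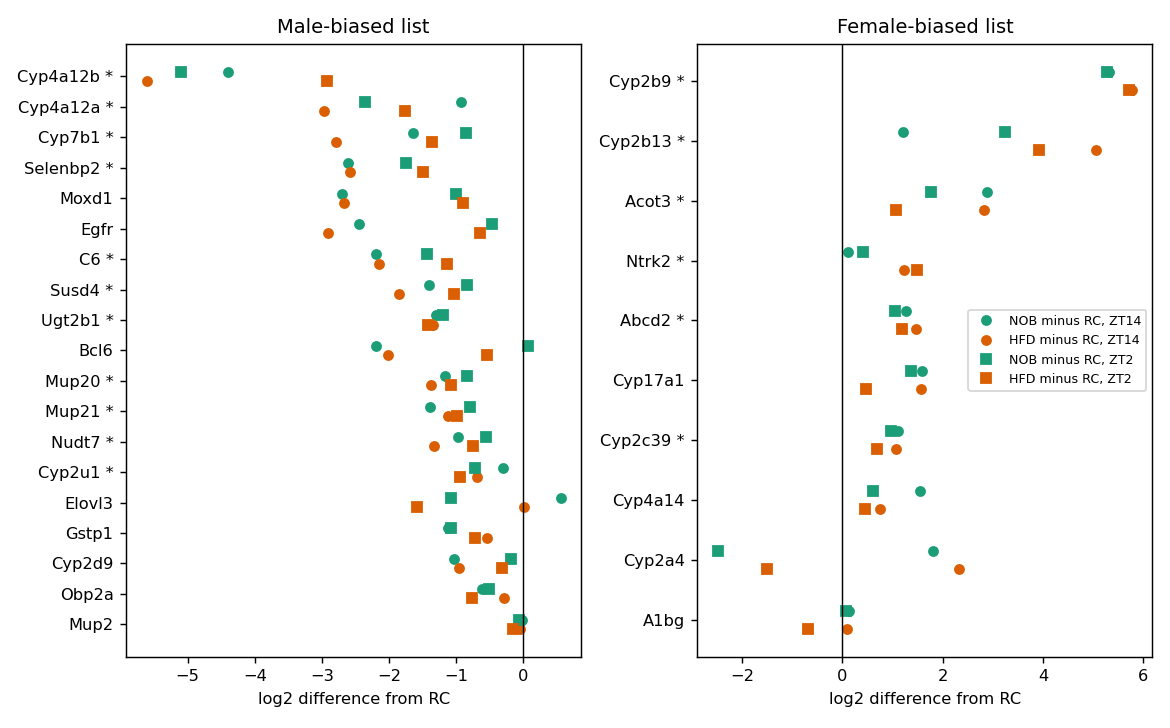
Log2 difference from RC of NOB (green) and HFD (orange) at ZT14 (circles) and ZT2 (squares) for 19 measured male-biased genes (left) and 10 measured female-biased genes (right), each sorted by HFD minus RC. An asterisk marks genes that passed limma for HFD minus RC, which were 11 on the left, all lower, and 6 on the right, all higher. Cyp2b13, Cyp2c39, Abcd2 and Ntrk2 on the right were undetected in RC.

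Female-biased liver genes were measured for 10 of 24 listed. In HFD 6 rose and 0 fell against RC by limma, beside 4.49% of all genes as higher. In NOB 4 rose and 0 fell, beside 0.526% of all genes as higher. Among the genes that rose, Cyp2b13, Cyp2c39, Abcd2 and Ntrk2 were undetected on both RC arrays. They passed the detection filter only through the high-fat pools, so a fall could not have been seen for them. The fit used their RC levels as they stand, and no direction is read from these counts. Cyp2b9, a cytochrome P450, lay at 5.30 in NOB and 5.74 ± 0.14 (SE) in HFD relative to RC. Abcd2, a peroxisomal transporter of fatty acids, was at least 1.45-fold higher in NOB and at least 1.63-fold higher in HFD than in RC, where it was undetected. Acot3, a peroxisomal thioesterase, lay at 2.32 in NOB and 1.95 in HFD, and Cyp2c39 was at least 1.25-fold and at least 1.11-fold higher. Cyp2b13, at least 2.71-fold higher in NOB and at least 13.0-fold higher in HFD, and the receptor gene Ntrk2, at least 2.12-fold higher in HFD, passed in HFD and not in NOB. Whether NOB and HFD differed was tested by NOB minus HFD, in which 0 of the 10 passed limma and 3 were lower and 0 higher at an unadjusted p under 0.05, Ntrk2 at -1.10 with an adjusted p of 0.0723 in limma. The others of the 4 largest differences were Cyp2b13 (-2.26), Cyp2a4 (-0.75) and Cyp4a14 (0.48). Calls in HFD against RC also dropped in this list without either HFD array or without the RC array of ZT14, as they did over all genes. The female-biased list has the same limit as the male-biased one, since it was chosen with these data known.

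Of the signalling genes upstream, 9 of 11 were measured, and Socs2, a feedback inhibitor induced by STAT5, was the single call in HFD against RC (-1.13 ± 0.25 SE, adjusted p = 0.0468 in limma), with -0.28 in NOB, beside 6.82% of all genes in either direction. Cish, another such inhibitor, lay at -0.52 in NOB and -1.06 in HFD, and Stat5a, a relative of Stat5b, at 0.60 and 0.72, and neither passed. A dimmer probe of Stat5a gave 0.20 in NOB and 0.09 in HFD. The receptor gene Ghr lay at -0.02 in NOB and 0.04 in HFD and Igf1, the growth factor released on growth hormone action, at -0.39 and -0.57, neither of which passed, and the 3 probes of Ghr ranged from -0.36 to 0.41 in HFD.

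Relatives of the members by family were measured for 21 of 43 listed genes, with 5 that fell and 1 that rose in HFD against RC, beside 6.82% of all genes in either direction. In NOB against RC 3 fell and 0 rose, beside 0.993% of all genes in either direction, and these were Mup20, Slco2a1 (-1.19) and Serpina1e. The 5 that fell in HFD were Mup6 (-1.15), Mup20 and Mup21 as above, Slco2a1, a prostaglandin transporter (-1.63 ± 0.16 SE, adjusted p = 0.00453 in limma), and Serpina11 (-0.63). Serpina7, which encodes thyroxine-binding globulin, rose in HFD (2.28 ± 0.28 SE, adjusted p = 0.00952 in limma). In NOB, Serpina1e, an alpha-1 antitrypsin gene, fell against RC (-3.77, adjusted p = 0.0395 in limma) and stood at -2.31 in HFD (adjusted p = 0.0507 in limma). Its levels were 9.56 and 11.65 in NOB, 10.86 and 13.26 in HFD, and 14.40 and 14.35 in RC at ZT14 and ZT2, so the chow pools were near the top of the scale. The related steroid dehydrogenase Hsd3b2 lay at -0.22 in NOB and -0.12 in HFD by its brighter probe and did not pass. Its dimmer probe, detected on all 6 arrays, gave -0.69 and -0.72 and was not tested, so the probes differed in size. The liver transporters Slco1b2 and Slco1a4 stood at 0.20 and -0.44 in HFD without passing. Among 12 of 14 measured genes of abundant secreted liver proteins 0 passed limma in HFD against RC in either direction, beside 6.82% of all genes. At an unadjusted p under 0.05 in limma 2 were lower and 0 higher, beside 24.2% of all genes in either direction, and the median of the list was -0.05. The 4 largest differences were -0.56 for Serpina1a, -0.39 for Ahsg, 0.15 for Hpx and -0.13 for Apoh. Apoa1, Apoa2, Apoc3, Ttr, Trf, Ahsg, Serpina1b and Hpx lay within 1 log2 unit of the highest level on all arrays, and the Alb probe lay near background. This list could therefore hardly show a call, and no lack of change is read from it.

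The genes whose profile was most like that of the members were sought over the 6 arrays. The mean profile of the 4 measured members, each centred on its own mean, was -1.21 and -0.43 in NOB at ZT14 and ZT2, -1.25 and -0.20 in HFD, and 1.59 and 1.49 in RC. The members were not scaled, so Hsd3b5, with the widest range, weighed most in this mean. Its levels in NOB and HFD at ZT14 were undetected. Each member is part of this mean, so each was also set against the mean of the other 3, which gave r = 0.936 for Hsd3b5, 0.955 for Serpina4-ps1, 0.922 for Mup5 and -0.172 for Mup3. Among 1028 genes detected on at least 4 arrays and spanning at least 1 log2 unit, the 10 most alike were Creld2 (r = 0.994), Ubfd1 (0.993), C6 (0.991), Gmppb (0.985), Hsp90b1 (0.983), Chrd (0.982), Pdia5 (0.980), Wfs1 (0.979), Txlna (0.978) and Mup20 (0.976). Creld2, an endoplasmic reticulum protein, lay at 7.74 and 8.91 in NOB, 7.67 and 8.71 in HFD, and 10.79 and 10.64 in RC. The 5 most opposed were Rcan2 (r = -0.990), Gm15408 (-0.984), Fcgr4 (-0.982), Gas6 (-0.981) and Acot4 (-0.980). With 6 points that fall into high and low pools by diet, any gene that follows the diet scores highly, and these values are a description without a test.

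**Figure D4:**
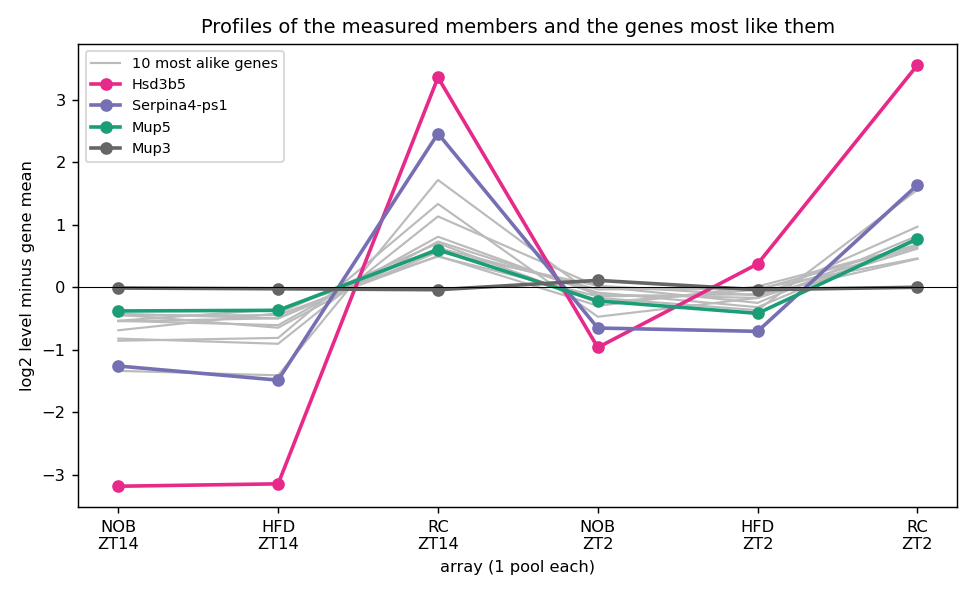
Log2 level minus the mean of the gene (vertical axis) on each of the 6 arrays for the 4 measured members and, in grey, the 10 genes most alike to their mean profile. Hsd3b5 and Serpina4-ps1 swing widest, Mup5 also has both RC pools highest, with a smaller range, and Mup3 stays near 0.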

How the data were processed

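The deposited table holds an average bead signal (intensity) per probe that was neither background-subtracted nor scaled between arrays, since the medians differ, and a detection p-value against the negative controls, per the file headers. The submitters' processing notes name GenomeStudio, without a version or normalization option. The authors' processed intensities, linear and equalised between arrays (median 3.5 in each column), served as an alternative; the amount subtracted from each array is unknown.

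Signals were corrected and normalised with neqc (limma 3.58.1, R 4.3.3, offset 16) and log2 transformed. Probes with detection p under 0.01 on at least 2 arrays were kept, and the brightest stood for a gene. Of 45281 probes, 34885 had 1 symbol, 18 several and 10378 none. An additive arm and time model was fitted over 8561 genes with 2 residual and 4.82 prior degrees of freedom (two-sided, Benjamini-Hochberg, 0.05). The pipeline was tested on simulated data. An undetected group gives a bound: the brighter level against the higher of the measured level and the weakest detected signal.

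Members and lists were chosen with earlier results of these data known. All members were named, list genes if called or else the 4 largest differences, and the 10 most and 5 least alike genes by Pearson r; further genes and probes were named after their values were seen. With 6 arrays, precision is limited by their number.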

Additional observations from a re-analysis of the deposited data

Results flagged for a closer look

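Differences of opposite sign at ZT14 and ZT2 were picked out, each resting on 1 pool per arm and time; none was tested. Among the members, HFD minus RC of Mup3, near the top of the scale, was 0.0152 at ZT14 and -0.0393 at ZT2. NOB minus HFD of Mup5 was -0.0103 at ZT14 and 0.199 at ZT2. Among the genes of the 5 lists, HFD minus RC was 2.32 and -1.5 for Cyp2a4, a steroid hydroxylase, 0.0181 and -1.58 for the elongase gene Elovl3, 0.0918 and -0.686 for A1bg, 0.0919 and -0.0124 for Ghr, -0.221 and 0.624 for Slco1b2, and -0.132 and 0.0887 for Serpina1d at ZT14 and ZT2. Among the secreted proteins it was 0.315 and -0.515 for Alb, whose probe was near background, -0.0445 and 0.0985 for Apoc3, 0.0793 and -0.115 for Ttr, and 0.0314 and -0.285 for Apoh. For the other contrasts only list genes whose differences are given above were examined. NOB minus HFD was 2.04 and -0.597 for Cyp4a12a, 1.2 and -2.19 for Cyp4a12b, and -0.266 and 0.202 for Mup21. NOB minus RC was -0.822 and 0.253 for Socs2 and 0.189 and -0.22 for Ghr.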

How the results depend on the processing

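No replicates could be paired because each arm and time is 1 pool, and the additive fit compares the arms within each time. The median HFD minus RC difference of the measured members, -2.11, was -1.68 without background correction, -1.73 with an offset of 50, -1.85 with median scaling, -1.08 with no filter on dim probes (Slco1a1 enters), and -2.46 to -1.76 leaving out single arrays. For NOB minus RC, -1.99 became -1.60, -1.65 (offset) and -0.99 (no filter), and -2.34 to -1.65 leaving out arrays. HFD minus RC of Hsd3b5, Serpina4-ps1 and Mup5 was negative in 14 of 14 alternatives each. That of Mup3 ranged from -0.06 to 0.06. Median scaling put the median of all genes at 0.25, with Mup5 at -0.86 and Mup3 at 0.06. ZT14 minus ZT2 of Serpina4-ps1, -0.19, turned to 0.00594 without background correction and ranged from -0.69 to 0.11 leaving out arrays; members called for time were 0 to 1. Male-biased calls as lower in HFD, 11, were 2 with no filter, 7 with no time term and 1 to 13 leaving out arrays. Female-biased calls as higher, 6, were 3 with no filter and 1 to 8 leaving out arrays; calls as lower were 0 to 1. For NOB minus HFD, female-biased calls as lower were 1 with median scaling and 0 to 1 leaving out arrays. Over all genes, 584 calls for HFD minus RC became 1608 with median scaling (131 lower and 1477 higher, against 200 and 384), 91 with no filter, 301 with no time term and 34 to 721 leaving out arrays. The 14 for NOB minus HFD became 42, 1, 9 and 0 to 41 in that order. List counts for NOB minus RC were not recomputed under alternatives. The cause of these moves was not tested. Hsd3b5 and Serpina4-ps1 rest on background in 1 high-fat array or more, and Mup3 on the top of the scale.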
